A study of Oryza sativa with 16 samples.

Results

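Open chromatin of rice seedlings after 3 h of heat was compared with that after 6 h of salt, these being the later of the heat and the salt sampling times. The members are the peaks that were present in one of these lists only. A peak counted as such when no peak of the other list overlapped it by at least 1 bp. There were 21293 of them among the 178520 peaks of both lists, namely 11963 of 91083 heat 3 h peaks and 9330 of 87437 salt 6 h peaks. The 7 lists of the series together hold 695463 peaks. The heat 3 h seedlings had been kept at 42 °C for 3 h, and the salt 6 h seedlings had been exposed to 250 mM NaCl for 6 h. All were 14-day-old seedlings of the Japonica cultivar Nipponbare, with 2 FAIRE-seq replicates for each treatment. The other lists, which serve here only to describe the members, come from seedlings after 12 h or 24 h at 4 °C, after 30 min at 42 °C, after 2 h of salt at the same concentration, and from control seedlings grown at 28 °C. The libraries were made from seedlings, so that a peak averages over many cell types. More cells with an open site and a wider opening of it in each cell cannot be told apart.

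FAIRE-seq fixes tissue with formaldehyde, breaks the chromatin, and uses a phenol extraction to collect DNA to which little protein was bound, which is then sequenced. Places with many reads are those where nucleosomes are sparse, mostly promoters, enhancers and other regulatory DNA. In plants, heat is known to activate heat shock transcription factors, which bind promoters of chaperone genes. High salt acts through ionic and osmotic stress, and much of the response to it runs through the hormone abscisic acid. In rice, the DNA around the centromeres is rich in transposable elements and poor in genes, whereas genes are dense toward the chromosome arms' ends.

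Heat 3 h and salt 6 h peaks covered nearly the same length of the genome, and most of it was shared. Heat 3 h peaks covered 69.87 Mb and salt 6 h peaks 68.58 Mb, of which 58.04 Mb were covered in both. The Jaccard index, which is the shared length over the length covered in at least 1 of the lists, was 0.722, with an SD of 0.012 over the 12 chromosomes. Median peak width was 610 bp in the heat 3 h list and 614 bp in the salt 6 h list. The fold enrichment of each peak over its local background, as computed by MACS2 for the authors, had a median of 2.48 in the heat 3 h list and 3.00 in the salt 6 h list, and was used below only to rank peaks within a list. Of the heat 3 h peaks, 5370 (5.90%) had a −log10 q under 2, against 1195 (1.37%) of the salt 6 h peaks. The heat 3 h list thus held more peaks that barely passed the authors' limit. For each treatment 1 list was used here, which holds no read counts. The depth of the libraries was not analysed here, replicate errors could not be given, and peaks were not tested against each other for significance.

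Among the heat 3 h peaks, 13.1% had no salt 6 h peak (95% Wilson interval 12.9% to 13.4%), and among the salt 6 h peaks, 10.7% had no heat 3 h peak (10.5% to 10.9%). Such intervals account for counting error alone, and variation among seedlings is not in them. The share was higher in the heat 3 h list on each of the 12 chromosomes, by 0.583 to 3.596 percentage points. That order changed when the weakest peaks were left out, both as members and as partners. A peak that lost its partners in this way counted as without one. A limit of 2 on −log10 q removed 5370 heat 3 h and 1195 salt 6 h peaks. The shares became 10.7% for heat 3 h and 12.2% for salt 6 h, and salt 6 h was the higher on 12 chromosomes. The shares of the kept peaks against the full other list were not computed. To make the numbers equal, the 3646 heat 3 h peaks of lowest fold enrichment were left out and all 87437 salt 6 h peaks were kept. The shares then became 11.7% for heat 3 h and 12.6% for salt 6 h, and salt 6 h was the higher on 10 chromosomes. As no salt 6 h peak was left out, the salt 6 h share rose only through lost heat 3 h partners. The covered length behaved alike. Heat 3 h covered 1.29 Mb more than salt 6 h, with more bases on all 12 chromosomes, but with the stricter limit the difference was -0.636 Mb and with equal numbers of peaks it was -0.377 Mb. Which of these lists had the larger share of peaks of its own therefore depended on the setting. Under both settings heat-only peaks were still the wider ones, with medians of 287 bp for heat-only and 265 bp for salt-only peaks at the stricter limit and of 297 and 272 bp with equal numbers.

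Each chromosome held such peaks in similar proportion. In the heat 3 h list, the share of peaks without a salt 6 h peak was lowest on chromosome 4 (987 of 8311 peaks, 11.9%), had a median of 12.9% and was highest on chromosome 11 (944 of 6237, 15.1%). Chromosome 12 came next with 14.6%. In the salt 6 h list, the share of peaks without a heat 3 h peak was lowest on chromosome 1 (1000 of 10700, 9.35%), had a median of 10.9% and was highest on chromosome 12 (674 of 5470, 12.3%), followed by chromosome 11 with 11.7%. The same 2 chromosomes thus stood at the top of both lists, and they also had the lowest Jaccard indices, 0.696 for chromosome 11 and 0.701 for chromosome 12, against 0.738 for chromosome 1. The gap between the lists was smallest on chromosome 4, where the shares were 11.9% for heat 3 h and 11.3% for salt 6 h and the Wilson intervals overlapped (11.2% to 12.6% and 10.6% to 12.0%). It was largest on chromosome 2, with 13.7% for heat 3 h and 10.2% for salt 6 h.

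**Figure D1:**
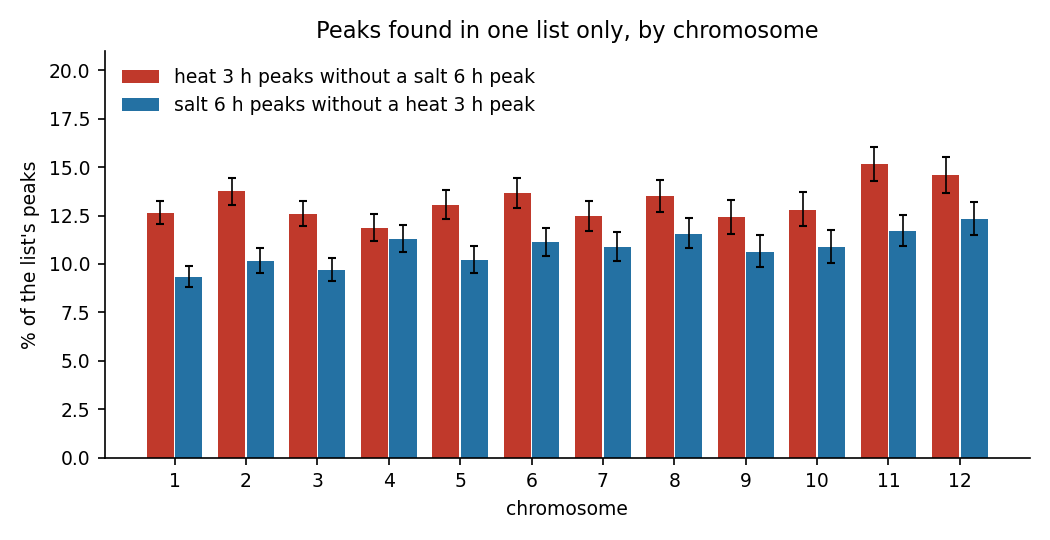
Bars give the percentage of a list's peaks that had no peak of the other list on each of the 12 chromosomes, with 95% Wilson intervals for counting error; heat 3 h is in red and salt 6 h in blue. The red bar is the higher on every chromosome, and chromosomes 11 and 12 have the highest bars of both colours.

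Peaks found in one list only were narrow. Those of heat 3 h had a median width of 309 bp (quartiles 232 and 497 bp), against 671 bp (400 and 1081 bp) for heat 3 h peaks with a partner. Those of salt 6 h were narrower still, with a median of 257 bp (218 and 365 bp), against 670 bp (402 and 1089 bp) for salt 6 h peaks with a partner. The peaks with a partner were thus nearly of the same width in both lists, while those without one were not. Salt-only peaks had the lower median on each of the 12 chromosomes, where it lay between 301 and 320.5 bp for heat 3 h and between 252 and 265 bp for salt 6 h. In the narrowest class, from 200 bp to under 300 bp, 35.7% of the heat 3 h peaks (5709 of 16002) and 37.5% of the salt 6 h peaks (5823 of 15531) had no partner. From 300 bp upward heat 3 h had the larger share. It was 16.2% in heat 3 h and 10.9% in salt 6 h below 500 bp, 8.04% in heat 3 h and 4.20% in salt 6 h below 1000 bp, and 2.03% in heat 3 h against 0.753% in salt 6 h below 2000 bp. At 2000 bp and over, 18 of 3482 heat 3 h peaks (0.517%) and 4 of 4046 salt 6 h peaks (0.0989%) stood alone. Narrow peaks of under 300 bp made up 62.4% of the salt-only peaks but 47.7% of the heat-only peaks, although both full lists had nearly the same part of them, 17.6% in heat 3 h and 17.8% in salt 6 h. The matching rule itself favours narrow members, as a wider peak has more room to meet a peak of the other list. Its part in the fall with width was not tested.

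**Figure D2:**
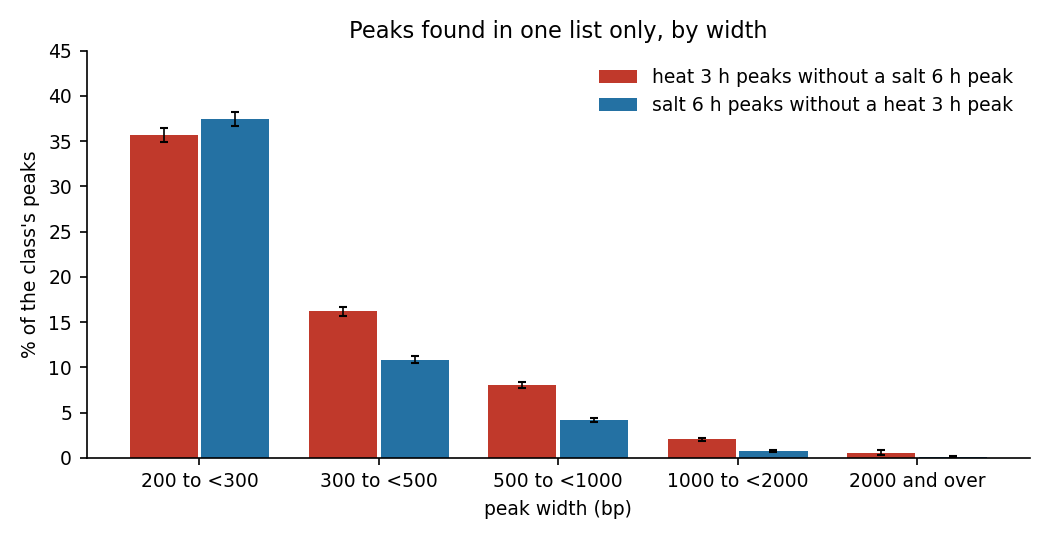
Bars give, for 5 classes of peak width in bp, the percentage of the peaks of a class that had no peak of the other list, with 95% Wilson intervals; heat 3 h is in red and salt 6 h in blue. The lists are close in the narrowest class, at 35.7% and 37.5%, and the red bar is the higher in the other 4 classes.

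These peaks were also weak within their own list. Heat-only peaks had a median fold enrichment of 1.85, which stood at percentile 15.4 of the heat 3 h list, and salt-only peaks one of 2.17, at percentile 16.0 of the salt 6 h list. Each list was ranked by fold enrichment and cut into 5 groups of equal size. In the lowest group of heat 3 h, 40.5% of the peaks had no partner, and in the highest 16 of 18217 (0.0878%). For salt 6 h it was 31.3% in the lowest group and 12 of 17489 (0.0686%) in the highest. Of the 20000 peaks of highest fold enrichment, 18 in heat 3 h and 21 in salt 6 h had no peak in the other list. Strong sites were thus nearly all shared between heat and salt. Many heat-only peaks stood close to the authors' limit. A −log10 q under 2 was found in 26.3% of the heat-only peaks, against 7.05% of the salt-only peaks, and the median −log10 q was 2.76 for heat-only and 4.93 for salt-only peaks.

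One-list peaks recurred in the other conditions less fully than peaks with a partner. By definition, however, peaks with a partner were already called in another list. They were also wider and stronger within their lists, and the part of this in the contrast was not tested. Of the heat-only peaks, 5756 (48.1%) overlapped a peak in each of the other 5 lists, against 93.4% of the heat 3 h peaks with a partner. Of the salt-only peaks, 4957 (53.1%) did, against 93.5% of the salt 6 h peaks with a partner. These are places open in control seedlings and in every other stress sample, with a peak missing from a single list. At the other end, 668 heat-only peaks (5.58%) and 761 salt-only peaks (8.16%) overlapped no peak of any other list, against 0.441% of the heat 3 h and 0.442% of the salt 6 h peaks with a partner. Those private peaks were the narrowest, with a median of 227.5 bp in heat 3 h and 218 bp in salt 6 h.

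The lists in which the heat-only and the salt-only peaks recurred were not the same. A control peak was present at 64.0% of the heat-only peaks (7659 of 11963, interval 63.2% to 64.9%) and at 80.5% of the salt-only peaks (7507 of 9330, 79.6% to 81.3%). The difference was -16.4 percentage points and had this sign on all 12 chromosomes, where the shares ran from 60.9% to 65.9% for heat-only and from 77.9% to 84.4% for salt-only peaks. Peaks of salt 2 h, the earlier salt sample, were present at 55.5% of the heat-only and at 83.8% of the salt-only peaks. Peaks of heat 30 min, the earlier heat sample, were present at 88.1% of the heat-only and at 73.4% of the salt-only peaks. In the cold 12 h list the shares were 89.4% for heat-only and 61.4% for salt-only peaks, so heat-only peaks recurred there at a share close to that in the earlier heat sample. Each of these 4 differences had the same direction on all 12 chromosomes. It kept that direction under the 5 settings in which it was recomputed. The differences were smallest when both lists held only peaks of at least 300 bp. They were then -11.7 points for control, -19.4 for salt 2 h, 9.54 for heat 30 min and 17.9 for cold 12 h. Peaks whose only partners were narrower counted as one-list peaks there, and the part of this in the smaller differences was not tested. For cold 24 h the shares were 76.1% and 76.0%, and this difference of 0.0979 percentage points had its sign on 7 chromosomes only and turned to between -1.94 and -1.30 points in 3 of the 5 settings. Peaks with a partner served as the background, although by the rule they were already called in another list and they were wider and stronger. They overlapped a control peak in 97.0% of cases in both lists, and the 4 stress lists in 94.9% to 98.9%. Cold 12 h (110010 peaks) and heat 30 min (108147 peaks) are also the longest lists of the series, and the part of list length in these shares was not tested.

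**Figure D3:**
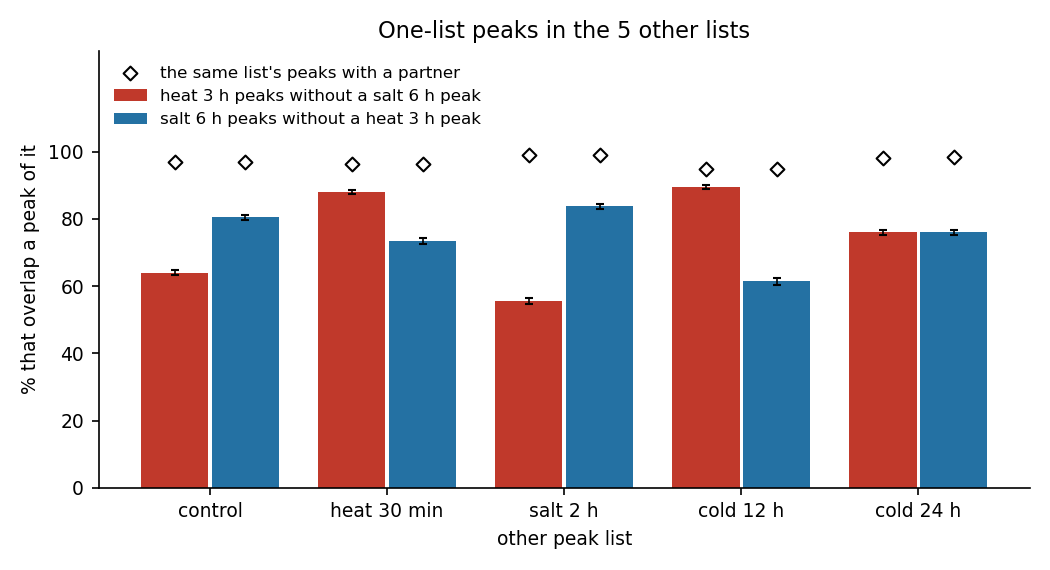
Bars give the percentage of heat-only peaks (red) and salt-only peaks (blue) that overlapped a peak of each of the 5 other lists, with 95% Wilson intervals; white diamonds give the same percentage for the peaks of the same list that had a partner. Blue is the higher for control and salt 2 h, red for heat 30 min and cold 12 h, and for cold 24 h the bars are level at 76.1% and 76.0%.

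Splitting by the control list separated places where the other treatment lacked a control peak from places where the treatment itself had a peak that the control lacked. For the first kind, the order depended on the setting. Heat-only peaks with a control peak numbered 7659 (8.41% of the heat 3 h list), and salt-only peaks with a control peak numbered 7507 (8.59% of the salt 6 h list), a difference of -0.177 points. At a −log10 q of at least 2 these shares were 6.82% for heat 3 h and 9.80% for salt 6 h, and with equal numbers of peaks 7.68% for heat 3 h and 10.4% for salt 6 h. The salt-only peaks with a control peak then numbered 8448 and 9095. These include salt 6 h peaks whose heat 3 h partners had been left out. When both lists held only peaks of at least 300 bp, heat 3 h was the higher, with 10.1% against 9.15% for salt 6 h. Peaks whose only partners were narrower counted as one-list peaks there. The second kind took a larger share of the heat 3 h list. Heat-only peaks without a control peak numbered 4304 (4.73% of the list), against 1823 salt-only peaks without one (2.08%). The difference of 2.64 points had its direction on 12 chromosomes, and lay between 1.48 and 4.17 points in the 5 settings in which it was recomputed. Over all peaks, 7.31% of the heat 3 h list (6654) and 4.73% of the salt 6 h list (4136) lacked a control peak, and among peaks with a partner it was 2.97% in heat 3 h and 2.96% in salt 6 h. Of those 4304, 70.3% overlapped a heat 30 min peak and 76.1% a cold 12 h peak, but 14.5% a salt 2 h peak. Of the 1823, 43.3% overlapped a salt 2 h peak, 21.9% a heat 30 min peak and 13.8% a cold 12 h peak. Combinations of lists were counted as well, and the following opposite pair was picked after the values were seen. With a peak in heat 30 min and cold 12 h and none in control or salt 2 h, there were 2458 heat-only peaks (20.5%) and 42 salt-only peaks (0.450%), while 0.0341% of the heat 3 h and 0.0294% of the salt 6 h peaks with a partner had this combination. The opposite combination, with a peak in control and salt 2 h and none in heat 30 min or cold 12 h, held 61 heat-only peaks (0.510%) and 601 salt-only peaks (6.44%), beside 1.09% of the heat 3 h and 1.07% of the salt 6 h peaks with a partner. Since the same control list was used for both, peaks that it lacks for any reason can appear on either side.

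Heat-only and salt-only peaks differed in opposite directions between the ends and the middle of the chromosomes. Each chromosome was divided into 10 bins of equal length between its first base and the end of its last peak. In the heat 3 h list, the share without a partner was 14.7% ± 1.7 in bin 1 and 15.8% ± 2.1 in bin 10 (mean ± SD over 12 chromosomes), and 11.6% ± 1.2 in bin 5. In the salt 6 h list, it was 9.69% ± 2.4 in bin 1 and 8.61% ± 1.5 in bin 10, and 13.9% ± 2.6 in bin 5. The courses were not opposite over the whole length. In bin 8 both shares were low, at 11.8% ± 1.9 for heat 3 h and 9.36% ± 1.5 for salt 6 h, and heat 3 h had 13.1% ± 1.8 in bin 6 and 12.9% ± 2.3 in bin 7. Over the outermost bin at either end, 15.3% of the heat 3 h peaks (2912 of 19063) had no partner, against 12.5% (4287 of 34363) in the 4 middle bins (4 to 7). For salt 6 h the order was the reverse, with 8.88% at the ends (1557 of 17539) and 12.3% in the middle (4159 of 33752). These opposite directions are not independent, since each share depends on the peaks of both lists. The ends held 19063 heat 3 h and 17539 salt 6 h peaks, and the middle 34363 and 33752. Ends exceeded the middle on 12 of 12 chromosomes for heat 3 h, by 0.906 points on chromosome 3 to 4.32 points on chromosome 6. For salt 6 h they stayed below it on 12 of 12 chromosomes, between -0.608 points on chromosome 9 and -5.98 points on chromosome 5. The SD of this difference over the chromosomes was 1.19 points for heat 3 h and 1.69 points for salt 6 h, which is smaller than its mean of 2.79 and -3.44 points. In the 5 settings in which it was recomputed, the difference lay between 2.01 and 3.56 points for heat 3 h and between -4.61 and -3.26 points for salt 6 h. Chromosomes share their libraries, so their spread does not stand for that between seedlings.

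**Figure D4:**
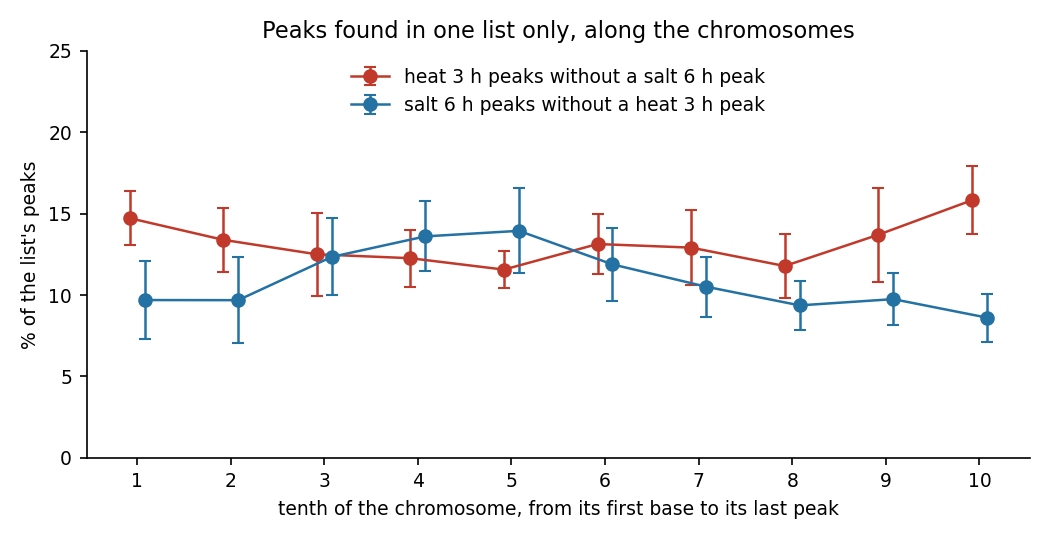
Points give the percentage of a list's peaks without a peak of the other list in each of 10 bins along the chromosomes, as the mean over 12 chromosomes with bars for the SD; heat 3 h is in red and salt 6 h in blue. Red is highest in bins 1 and 10, blue in bin 5, and in bins 4 and 5 blue lies above red.

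The difference between ends and middle was also present within classes of peak width. The ends and the middle had nearly the same median width over all peaks, 610 and 601 bp in heat 3 h and 612 and 607 bp in salt 6 h. Among heat 3 h peaks under 300 bp, 40.9% at the ends and 33.3% in the middle had no partner, and for widths from 500 bp to under 1000 bp it was 9.89% at the ends and 7.33% in the middle. Among salt 6 h peaks the same classes gave 34.0% at the ends and 40.0% in the middle, and 2.76% at the ends and 5.50% in the middle. At 2000 bp and over, with 4 such heat 3 h and 1 such salt 6 h peak at the ends, the shares could not be told apart. When both lists held only peaks of at least 300 bp, the ends were higher for heat 3 h on 11 chromosomes. Unlike in the width classes, peaks whose only partners were narrower counted as without a partner there. The difference between ends and middle was also present on both sides of the control split. Heat-only peaks with a control peak made up 9.85% of the heat 3 h peaks at the ends and 7.88% of those in the middle, and heat-only peaks without one 5.42% at the ends and 4.60% in the middle. Salt-only peaks with a control peak made up 7.12% of the salt 6 h peaks at the ends and 9.86% in the middle, and those without one 1.76% at the ends and 2.46% in the middle. For peaks with a control peak the direction held on 12 of 12 chromosomes in both lists. For peaks without one, the ends were higher on 10 chromosomes for heat 3 h and on 1 for salt 6 h.

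The shares were also taken in smaller windows. In the 378 windows of 1 Mb that held at least 50 peaks of each list, the share without a partner ran from 5.58% to 29.0% for heat 3 h (median 12.9%) and from 3.94% to 23.6% for salt 6 h (median 10.3%). It was higher for heat 3 h in 264 windows and higher for salt 6 h in 113. Across the windows, the shares of both lists had a Spearman rho of -0.0735, so the shares of the lists hardly moved together. The share of the window that control peaks cover had a rho of -0.208 with the heat 3 h share and of -0.404 with the salt 6 h share. The windows are not independent of each other and these values are a description. In the 75 windows with the least control coverage (7.54% to 18.3% of their bases), 13.9% of the heat 3 h and 12.8% of the salt 6 h peaks stood alone. In the 76 windows with the most (26.3% to 31.4%), 11.6% of the heat 3 h and 9.13% of the salt 6 h peaks did. The highest heat 3 h shares were found at chr6:31000001-31236321, the short last window of its chromosome, with 29.0% (20 of 69 peaks, interval 19.6% to 40.6%), at chr12:24000001-25000000 with 25.9% (72 of 278) and at chr11:26000001-27000000 with 23.6% (37 of 157). Salt 6 h had 8.93%, 10.2% and 14.8% in these windows. Its own highest shares lay at chr5:12000001-13000000 with 23.6% (46 of 195, interval 18.2% to 30.0%), at chr12:8000001-9000000 with 21.4% (21 of 98) and at chr11:12000001-13000000 with 21.1% (24 of 114), where heat 3 h had 11.2%, 14.0% and 15.5%. The intervals of both lists overlapped in the window at chr11:26000001-27000000 and in the last pair named for salt 6 h. All these windows were picked for their high shares, and the intervals do not account for that choice. Those that did not overlap are therefore no evidence of a difference.

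Few strong peaks belonged to a single list, and those that did had mostly been seen elsewhere. Positions are on the rice assembly IRGSP-1.0. The heat-only peak of highest fold enrichment lay at chr11:12122533-12123549. It was 1017 bp wide with a fold enrichment of 4.94 (percentile 99.0 of its list) and overlapped peaks of salt 2 h and cold 24 h but none of control, heat 30 min or cold 12 h. The nearest salt 6 h peak was 2593 bp away. The next was at chr2:27673180-27673542, with a fold enrichment of 4.50 and a peak in all 5 other lists. The remaining 3 of the top 5 were on chromosome 12, at chr12:13418834-13419182, chr12:13408658-13409010 and chr12:14773476-14773833. Their fold enrichment was between 3.859 and 3.925, and a peak was present in all 5 other lists except at chr12:13408658-13409010, which had none in salt 2 h. The salt-only peaks of highest fold enrichment lay at chr10:8663429-8663706 (fold enrichment 4.54), chr1:5243818-5244105 (4.44), chr11:13230663-13230981 (4.34), chr2:13507225-13507508 (4.32) and chr11:7221481-7221820 (4.25). All 5 were between 278 and 340 bp wide, stood between the percentiles 83.5 and 88.0 of their list, and had a peak in each of the other 5 lists. Heat 3 h was thus the single list without a peak there. The widest one-list peaks were of the same kind. For heat 3 h they lay at chr1:27155753-27158511 (2759 bp), chr2:29355606-29358297 (2692 bp) and chr5:17512768-17515308 (2541 bp). For salt 6 h they lay at chr10:6612929-6615374 (2446 bp), chr8:16600758-16602951 (2194 bp) and chr12:15674851-15676895 (2045 bp). All 6 overlapped a peak in each of the other 5 lists. Their fold enrichment was low, from 1.68 to 1.96 in heat 3 h and from 2.23 to 2.53 in salt 6 h. The genes at these places are not named, as gene positions on this assembly were not used here.

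Few one-list peaks had a called peak of the other list close by. Signal below the calling limit cannot be seen in the lists, so a weak opening at the same place would be missed. The distances were not compared with the spacing of the other list's peaks. The distance to the nearest peak of the other list had a median of 1356 bp for heat-only peaks (quartiles 769 and 2443 bp) and of 1113.5 bp for salt-only peaks (674 and 2011 bp). Only 55 heat-only and 56 salt-only peaks had a peak of the other list within 200 bp. More than 10000 bp away from any peak of the other list were 65 heat-only peaks (0.543%) and 166 salt-only peaks (1.78%). Some stood side by side. Runs of at least 2 consecutive peaks without a partner held 4226 heat-only peaks (35.3%) and 2317 salt-only peaks (24.8%). A higher share of such peaks makes runs more frequent by itself, and no chance level was computed. The longest run, singled out after its length was seen, had 8 heat 3 h peaks at chr2:1612460-1629059. The longest salt 6 h run had 6 peaks, at chr2:35898013-35919494.

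Peaks shared by heat 3 h and salt 6 h differed little in width. Of these, 73273 pairs matched 1 to 1. Their median width was 666 bp in heat 3 h and 658 bp in salt 6 h, but the median of the log2 ratio of heat 3 h over salt 6 h width was -0.02 (quartiles -0.14 and 0.10), between -0.024 and -0.016 on the 12 chromosomes. The peak was wider in heat 3 h in 31235 pairs (42.6%) and wider in salt 6 h in 41565 (56.7%). Large changes went the other way. At least 2 times as wide in heat 3 h were 3111 pairs (4.25%), and at least 2 times as wide in salt 6 h were 2107 (2.88%). Across pairs, fold enrichment had a Spearman rho of 0.797 and width one of 0.847 between the lists. Of the 8860 pairs in the top 10% of heat 3 h by fold enrichment, 5606 were in the top 10% of salt 6 h too, and 32 were in its lower 50%. Of the 8498 pairs in the top 10% of salt 6 h, 96 were in the lower 50% of heat 3 h.

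**Figure D5:**
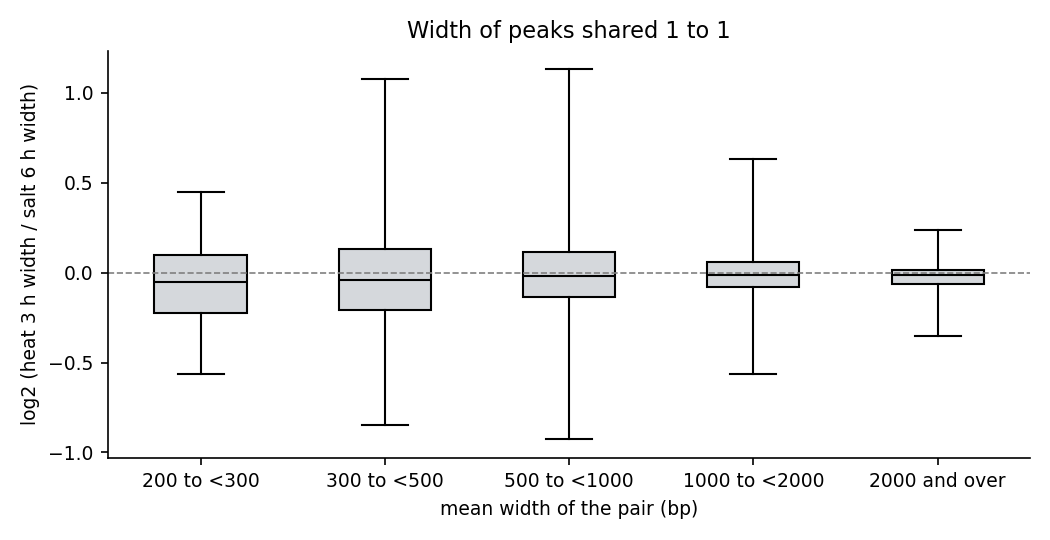
Boxes give the log2 ratio of heat 3 h width over salt 6 h width for 73273 peaks shared 1 to 1, by mean width of the pair in bp; boxes span the quartiles, black lines are medians and whiskers reach the percentiles 5 and 95. All 5 medians lie just below 0, between -0.053 and -0.011, and the boxes are taller below 500 bp than above it.

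The pairs with the largest excess of width in heat 3 h were chr1:28974521-28977447 (2927 bp in heat 3 h and 284 bp in salt 6 h), chr11:18391749-18395111 (3363 and 768 bp), chr12:3515281-3518007 (2727 and 200 bp), chr5:1346408-1349154 (2747 and 361 bp) and chr8:3226586-3229801 (3216 and 862 bp), each given by its heat 3 h position. The widest control peak at these places had between 1059 and 2506 bp and was thus wider than the salt 6 h peak at all 5. The largest excess in salt 6 h, by salt 6 h position, was at chr3:32410975-32415167 (920 bp in heat 3 h and 4193 bp in salt 6 h), chr6:10704559-10707387 (481 and 2829 bp), chr12:12172690-12176895 (1890 and 4206 bp), chr11:8534949-8538162 (1007 and 3214 bp) and chr7:10782617-10785665 (870 and 3049 bp). The widest control peak exceeded the heat 3 h peak at 4 of these 5. At the place on chromosome 7 the control had 3 peaks, of which the widest had 744 bp.

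A peak of one list sometimes spanned several of the other. In the heat 3 h list, 1307 peaks (1.43%) overlapped 2 or more salt 6 h peaks, and in the salt 6 h list, 2261 peaks (2.59%) overlapped 2 or more heat 3 h peaks. The salt 6 h number was the higher on all 12 chromosomes. Of those heat 3 h peaks, 63.7% lay over 1 control peak and 35.6% over 2 or more. Of those salt 6 h peaks, 77.2% lay over 1 control peak and 22.4% over 2 or more. In both lists, peaks that the other list had in pieces thus mostly overlapped 1 control peak. Whether that control peak spanned all the pieces was not tested. Peaks with a partner also held most of the bases in which the lists differed, be it at their edges or in gaps between pieces. Of the 11.83 Mb that heat 3 h peaks covered outside salt 6 h peaks, 4.84 Mb (40.9%) lay in peaks without a partner and 6.99 Mb (59.1%) in peaks with one. Of the 10.54 Mb that salt 6 h peaks covered outside heat 3 h peaks, 3.15 Mb (29.9%) lay in peaks without a partner and 7.39 Mb (70.1%) in peaks with one.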

How the data were processed

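FAIRE-seq peak lists of heat 3 h and salt 6 h seedlings were compared, with 5 further lists for description. Per the study's methods and processing notes, reads were aligned with Bowtie2 to IRGSP-1.0 and broad peaks were called with MACS2, after removal of duplicates and poorly mapped reads. The authors dropped a peak when one of its replicates had under 1 RPM there. How the 2 replicates of a treatment were combined is not given in the sources used here, and 1 list per treatment was used. Each deposited peak has a fold enrichment (a linear ratio to local background) and a −log10 q, both written by the authors' peak caller. No counts were used, and the depth of the libraries, which the lists do not hold, was not analysed here.

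Peaks matched when they overlapped by at least 1 bp. Covered bases, Jaccard indices, width classes, 10 bins per chromosome and windows of 1000000 bp were computed with Python 3.11.15 and numpy 2.4.6. Overlap counts were checked with bedtools 2.31.1 and the code was tested on simulated data. Wilson intervals (95%) cover counting error only. Starts were changed to count from 1. Named were the 5 one-list peaks of highest fold enrichment and the 3 widest of each list, the 5 pairs with the largest excess of width and the 3 windows (at least 50 peaks of each list) with the highest shares. Alternatives were a −log10 q of at least 2, equal numbers of peaks, the 20000 strongest peaks, 50% cover, a partner within 200 bp and peaks of at least 300 bp. Peaks left out by such a limit were left out as partners too, except for the 20000 strongest peaks against the full other list. The limit on q also held for the 5 further lists. Members, lists and rules were chosen with earlier results of these data known. The RNA-seq samples were not used.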

Additional observations from a re-analysis of the deposited data

How the results depend on the processing

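Of 87 recomputed values, 41 stayed within the limit set for their kind, 37 moved further and 9 changed sign. For shares and median widths the limit was the 95% counting interval. For the Jaccard index and the differences in shares it was the SD over chromosomes, and for the covered length a factor of 1.5. The recomputed differences between chromosome ends and middle, the differences in overlap with the earlier and control lists and the share differences between the lists, also split by control peak, were chosen after seeing the data. Differences below are heat 3 h minus salt 6 h or heat-only minus salt-only.

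With a −log10 q of at least 2, peaks without a partner were 10.7% in heat 3 h and 12.2% in salt 6 h (difference -1.50 points) with median widths of 287 and 265 bp, the covered length differed by -0.636 Mb, and overlap differed by 11.5 points for heat 30 min and 23.9 for cold 12 h. With equal numbers of peaks, the shares were 11.7% in heat 3 h and 12.6% in salt 6 h (-0.906 points), widths 297 and 272 bp, control overlap 65.6% and 82.5%, covered length -0.377 Mb, and overlap differed by 12.0 points for heat 30 min, 23.5 for cold 12 h and -1.64 for cold 24 h. For the 20000 strongest peaks, the Jaccard index was 0.529 and the covered length differed by 0.747 Mb, and against the full other list 0.09% of heat 3 h and 0.105% of salt 6 h peaks had no partner (-0.015 points). When 50% of a peak had to be covered, the shares were 17.8% in heat 3 h and 14.1% in salt 6 h (3.70 points), widths 415 and 309 bp, heat-only control overlap 60.8%, and overlap differed by -19.3 points for control, -31.4 for salt 2 h and -1.94 for cold 24 h. With peaks of at least 300 bp in both lists, 10.2% of salt 6 h peaks had no partner of that width. Overlap differed there by -11.7 points for control, 9.54 for heat 30 min, -19.4 for salt 2 h, 17.9 for cold 12 h and -1.30 for cold 24 h. One-list peaks with a control peak, as a share of the list, differed by -2.98 points at the stricter limit, -2.72 with equal numbers and 0.945 with peaks of at least 300 bp, and those without one by 1.48, 1.82 and 1.80 points in these settings and by 4.17 with 50% cover. The cause of these shifts was not tested.

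Leaving out a replicate, or pairing replicates, needs lists per replicate, and 1 list per treatment was used here. No paired analysis was possible because each treatment has a single list. The depth behind each list, not analysed here, limits what an absent peak means.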

Other observations

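Set among all 7 lists, the pair of heat 3 h and salt 6 h was neither the most nor the least alike. Of the 42 ordered pairs of lists, the share of peaks without a partner ran from 2.70% to 28.9% with a median of 8.32%, and heat 3 h against salt 6 h held rank 16 and salt 6 h against heat 3 h rank 18, counted from the highest.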
